A study of Mus musculus with 20 samples.

Results

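Steroid hormones act on a cell only through the receptors and coregulators that it makes, and here 9 such genes were followed through cultures of mouse ovarian surface epithelium (OSE), the single layer of cells that covers the ovary. They are the receptors Esr1, Esr2, Nr3c1 and Pgrmc1 and the coregulators Ncoa1, Ncoa2, Ncoa3, Ncor1 and Nrip1. They were taken by name, matched by Ensembl identifier, and all 9 were among the 14299 genes of the count table. Primary OSE cells were held for 48 hours in phenol red-free medium with charcoal-stripped serum, which is depleted of steroids. They were then cultured for 15 days with 100 nM estradiol (E2) or with the ethanol vehicle at 0.0002% (control). Single cells were caught on a Fluidigm C1 circuit, a chip with 20 columns, each of which gives 1 library of cDNA read from the 3' end. Control cells entered columns 1 to 10 and E2-treated cells the other 10. Each condition thus had its own columns, and the labels do not say whether it came from more than 1 culture. The effect of E2 and a difference between the cultures, cell suspensions or columns therefore cannot be told apart. The spread between libraries is not a spread between cultures. The strain, the age and the number of the mice that gave these cells are not given in the sources used here. Cells of column 13 were not analysed here, which left 10 control and 9 E2 libraries.

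The authors divided the 589 cells into a responsive cluster and a cluster 1 that they regarded as unresponsive to E2. The responsive cluster held 203 control and 218 E2-treated cells, and cluster 1 held 126 control and 42 E2-treated cells. For each library, the cells of each cluster were added up, and levels are given as CPM, the count scaled by the size of such a sum after TMM normalization. Since reads come from the 3' end and are not set against length, CPM were compared for the same gene between groups and never between genes. A sum had to hold at least 3 cells, which removed 3 of the 42 E2-treated cluster 1 cells and left 7 E2 libraries in that cluster. The sums held 2614442 to 3556778 reads in control responsive cells, 2136904 to 3904027 in E2-treated responsive cells, 712198 to 2224038 in control cluster 1 cells and 233995 to 771505 in E2-treated cluster 1 cells. The median cell had 128995 reads in control and 110884 in E2. The chip uses the same 40 site barcodes in each column, and no combination of column and site occurred more than once.

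Of 14 OSE markers, 13 were measured, all 13 had a read in responsive cells and Cdh1 was not analysed here. Their summed level ranged from 4807 to 6856 CPM in libraries of responsive cells and from 4337 to 7011 CPM in cluster 1. Of 12 OSE markers fitted over both conditions, 4 were higher in cluster 1, the median log2 difference was -0.51, and Lgals7 had no read in cluster 1 sums. Krt19, a keratin of this epithelium, was at 409 ± 81.2 CPM (SD, n = 10) in control responsive cells and at 25.9 ± 32.5 CPM (SD, n = 10) in control cluster 1 cells. The summed level of 8 measured fibroblast markers was 2098 to 2518 CPM in control responsive cells and 3008 to 4716 CPM in control cluster 1 cells, although 5 of the 8 were lower in cluster 1 and their median log2 difference was -0.64. The granulosa markers Fshr, Amh, Foxl2, Cyp19a1 and Hsd17b1 and the theca markers Cyp17a1, Lhcgr and Hsd3b1 were at 0 or were not analysed here. Other markers on both lists had reads. Of the 8 granulosa markers listed, 3 (Inha, Inhbb and Amhr2) were measured and had reads. Their summed level was 314.0 to 506.7 CPM in control and 204.4 to 672.3 CPM in E2-treated responsive cells. In cluster 1 it was 74.6 to 379.9 CPM in control and 13.6 to 429.0 CPM in E2. Of the 6 theca markers listed, 3 were measured. Their summed level was 16.4 to 65.1 CPM in control and 15.3 to 134.6 CPM in E2-treated responsive cells. In cluster 1 this theca sum reached 490.9 CPM in control (median 181.7) and 619.9 CPM in E2 (median 226.6), where Cyp11a1 had no read. The 1 theca marker fitted over both conditions was higher in cluster 1, with a log2 difference of 2.48. E2 library 15 stood apart. The median correlation of its responsive cells with the other E2 libraries was 0.701, against 0.774 to 0.813 for the others, its fibroblast markers summed to 4758 CPM in responsive cells and 9937 CPM in cluster 1, and its cluster 1 sum came from 3 cells. Results that change with it are also given without it.

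Nuclear steroid receptors are transcription factors that bind their hormone, settle on response elements in DNA and exchange corepressors for coactivators. Coactivators of the Ncoa (SRC) family dock on the receptor once the hormone is bound and bring in histone acetyltransferases, whereas corepressors bring in histone deacetylases. In the ovary estradiol comes mainly from granulosa cells, and the surface epithelium lies close to the follicles that make it.

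Esr1 (ENSMUSG00000019768; GRCm38 chromosome 10, 4611593 to 5005614, plus strand) encodes estrogen receptor alpha, and Esr2 (ENSMUSG00000021055; chromosome 12, 76120419 to 76177259, minus strand) encodes estrogen receptor beta. Nr3c1 (ENSMUSG00000024431) is the glucocorticoid receptor. Pgrmc1 (ENSMUSG00000006373; chromosome X, 36598206 to 36606079, plus strand) is a heme-binding membrane protein named as a component of a progesterone receptor and is not a nuclear receptor. Ncoa1 (ENSMUSG00000020647; chromosome 12, 4247362 to 4477182, minus strand), Ncoa2 (ENSMUSG00000005886; chromosome 1, 13139105 to 13374083, minus strand) and Ncoa3 (ENSMUSG00000027678; chromosome 2, 165992636 to 166073242, plus strand) are the SRC coactivators. Ncor1 (ENSMUSG00000018501; chromosome 11, 62316426 to 62458541, minus strand) is a corepressor that joins histone deacetylase complexes. Nrip1 (ENSMUSG00000048490; chromosome 16, 76287400 to 76373827, minus strand) is a corepressor that binds receptors carrying their hormone, and it is itself a known estradiol target.

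Promoter windows from 250 bases before to 50 bases after an annotated start (RefSeq, GRCm38.p6) were at hand for 6 of the 9 members. The full estrogen response element, GGTCA and TGACC with 3 bases between them, occurred in 0.071% of 32544 windows. The full glucocorticoid element, GNACA and TGTNC with 3 bases between them, occurred in 0.476%. Both were searched on both strands and matched no member's window. The GGTCA core alone, which lies within the full estrogen element, was found in 40.5% of all windows on either strand. It occurred 1 time in a window of Esr1, 2 times in that of Esr2 and 1 time in a window of Nrip1. The GC box GGGCGG was found in 35.9% of all windows, and it occurred 7 times in the window of Ncoa1, 5 times in that of Pgrmc1 and 2 times in 1 window each of Ncor1 and Nrip1. A match describes these letters and no binding was measured. The windows of Esr1 (chr10:4611739-4612038, plus strand) and Pgrmc1 (chrX:36597943-36598242, plus strand) are shown because the clusters differed in these members in the most libraries. Capitals mark the GGTCA core in Esr1 and the GC boxes, on either strand, in Pgrmc1.
Esr1: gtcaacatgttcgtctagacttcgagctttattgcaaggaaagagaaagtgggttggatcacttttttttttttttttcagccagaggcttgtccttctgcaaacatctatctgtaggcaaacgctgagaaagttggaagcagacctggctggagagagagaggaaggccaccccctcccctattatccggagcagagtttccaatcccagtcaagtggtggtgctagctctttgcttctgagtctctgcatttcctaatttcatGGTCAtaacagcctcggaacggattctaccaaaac
Pgrmc1: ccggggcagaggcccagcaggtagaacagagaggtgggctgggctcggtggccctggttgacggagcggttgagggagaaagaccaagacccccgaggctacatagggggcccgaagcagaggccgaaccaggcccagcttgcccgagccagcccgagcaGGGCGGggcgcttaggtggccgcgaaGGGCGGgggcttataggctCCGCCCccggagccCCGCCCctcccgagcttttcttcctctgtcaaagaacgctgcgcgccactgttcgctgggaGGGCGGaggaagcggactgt
The first holds 46.3% G and C and no GC box, and the second holds 69.0% G and C and no GGTCA core.

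All 9 members were detected, but in very different shares of cells. A read of Pgrmc1 was found in 537 of 589 cells (91.2%), of Ncor1 in 533 (90.5%), of Ncoa3 in 493 (83.7%), of Ncoa2 in 454 (77.1%), of Ncoa1 in 277 (47.0%), of Nr3c1 in 262 (44.5%), of Esr1 in 128 (21.7%), of Nrip1 in 91 (15.4%) and of Esr2 in 39 (6.62%). Every cell had a read of at least 1 member. Esr1 and Esr2 were found together in 5 cells, Esr1 without Esr2 in 123, Esr2 without Esr1 in 34 and neither in 427. At this depth a cell without a read is not shown to lack the transcript: thinning each cell to 20000 reads lowered the share with Esr1 to 15.96% and that with Ncoa3 to 35.5%.

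The number of reads behind a detection also differed between members. Cells with a read of Pgrmc1 held a median of 38 reads and those with a read of Ncor1 held 22. Cells with Nr3c1 held 14.5, with Ncoa1 11, with Esr1 10 and with Nrip1 7. Ncoa3 was an exception among the widely detected members. Its positive cells held a median of 2 reads, 327 of 493 had 3 or fewer, and the mean was 4.76 reads per positive cell against a median of 28.0 over 141 other genes found in a like share of cells (within 2 percentage points). Only 2.84% of those genes had a lower mean. Ncoa2 was similar, with a median of 4 reads, a mean of 9.52 against 26.0 over 198 genes of like detection, and 6.57% of those genes lower. For Esr2 the median was 2 reads, 30 of 39 positive cells had 3 or fewer, and 1 cell alone held 37 of its reads. Overlaps and shared sequence may limit some of these values. Only 36.6% of the values above 0 were exactly whole for Nr3c1, 50.9% for Ncoa2 and 55.2% for Ncor1, against 100.0% for Pgrmc1 and Ncoa1 and 66.9% over all genes. The software divides reads that fit several transcripts, and counts were then added up per gene. The part of division between genes in these values was not tested. Ncoa3 overlaps Sulf2, Ncor1 overlaps Ttc19, Pigl and the pseudogene Gm12276, and Esr2 overlaps the pseudogene Gm7862, and whether strand was used in counting is not stated, so reads of these pairs may be mixed.

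**Figure D1:**
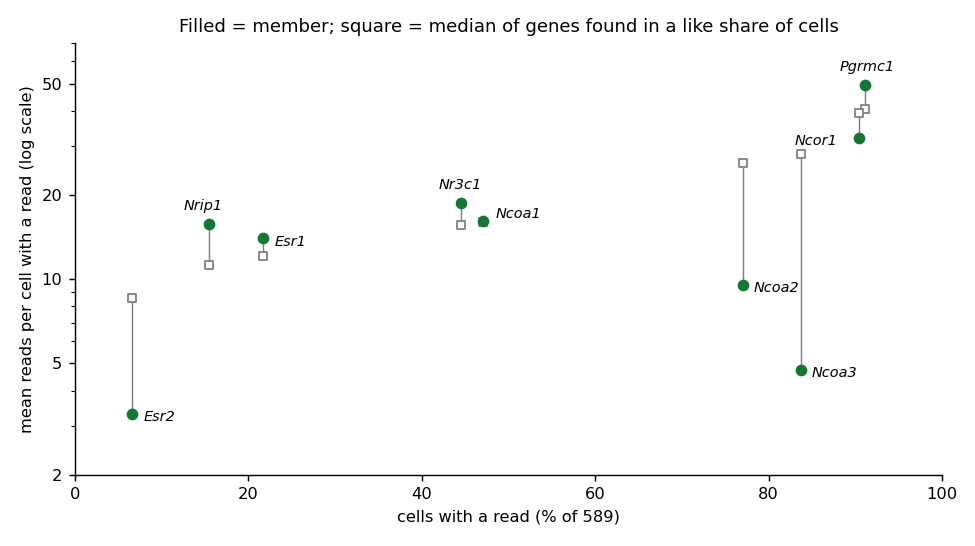
Mean number of reads per cell with a read (y axis, log scale) against the share of 589 cells with a read (x axis, percent) for the 9 members (filled points), each joined to the median of genes found within 2 percentage points of the same share (open squares). Ncoa3 lies at 4.76 reads below a median of 28.0, and Ncoa2 at 9.52 below 26.0, while Esr1, Nrip1, Nr3c1 and Pgrmc1 lie above theirs.

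To ask whether E2 changed the amount of these transcripts in the cells that respond to it, sums of responsive cells were compared between 9 E2 and 10 control libraries. A gene was called where edgeR's quasi-likelihood test gave a Benjamini-Hochberg adjusted p under 0.05 and the log2 fold change passed 0.5 in either direction. That was the case for 141 of 10265 genes (1.37%), of which 87 were higher with E2 (0.848%) and 54 lower (0.526%). None of the 8 members tested was among them. 1 member, Ncoa1, had an unadjusted p under 0.05, as had 1015 of the 10265 genes, and neither DESeq2 nor limma-voom called a member. Esr2 was too low to be tested in any fit.

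Esr1 ranged from 8.62 to 81.6 CPM (median 31.4) in control responsive libraries and from 6.89 to 58.0 CPM (median 17.9) in E2. The groups overlapped over nearly all of their range. The means were 33.4 ± 21.5 CPM (SD, n = 10) and 24.9 ± 15.9 CPM (SD, n = 9), a log2 fold change of -0.41 (SE 0.43, adjusted p = 0.871) that lay between -0.67 and -0.16 with each library left out in turn. The 95% interval ran from 0.410-fold to 1.38-fold. The share of cells with a read, each cell thinned to 20000 reads, was 19.01% ± 9.74 (SD, n = 10) for control and 18.3% ± 10.7 (SD, n = 9) for E2. Esr2 was at 0.619 to 13.3 CPM in control, where library 1 held the highest value, with all 37 counts from 1 cell. It was at or below 3.88 CPM in every E2 library and at 0 in 4 of 9. A count of 0 in these 4 libraries allows 0.820 to 1.505 CPM (3 counts), for counting error only. Its thinned share was 3.86% ± 2.10 (SD, n = 10) for control libraries and 1.92% ± 2.28 (SD, n = 9) for E2 libraries, a difference of -1.94 percentage points that did not pass (exact permutation p = 0.0511, adjusted p = 0.430). The median difference over all 11534 genes tested was -1.55 percentage points, so the fall of Esr2 is near that of the median gene.

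Nr3c1 was at 60.4 ± 33.7 CPM (SD, n = 10) in control and 62.0 ± 21.4 CPM (SD, n = 9) in E2. The libraries of the groups interleaved, from 17.2 to 123.8 CPM and from 27.6 to 99.2 CPM. This gave a log2 fold change of 0.05 (SE 0.31, adjusted p = 0.987). Pgrmc1 was at 204.3 to 471.2 CPM (median 284.8) in control and at 176.7 to 727.2 CPM (median 259.8) in E2. The log2 fold change of 0.11 (SE 0.22, adjusted p = 0.944) turned to -0.13 without E2 library 15, the highest value, and passed no threshold either way. The thinned share of responsive cells with a Pgrmc1 read was 84.9% ± 7.48 (SD, n = 10) for control libraries and 73.8% ± 10.9 (SD, n = 9) for E2 libraries. Its exact permutation p, two-sided like all here, was 0.0217, and the adjusted p was 0.314. Of 11534 genes, 104 (0.902%) were called on their shares, 28 of them higher with E2 (0.243%) and 76 lower (0.659%), and the median difference was -1.55 percentage points. The lower share of Pgrmc1 did not pass the adjustment. It runs against the mean CPM, though not against the median CPM or the fold change without library 15, and no order is read from it.

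Among the coactivators, Ncoa1 had the widest gap. Its control libraries held 27.0 to 95.6 CPM (median 44.6) and its E2 libraries 32.5 to 219.6 CPM (median 61.2). All but 1 of the E2 libraries lay within the control range, and library 20 was the exception at 219.6 CPM. The means were 49.0 ± 20.3 CPM (SD, n = 10) and 79.2 ± 55.1 CPM (SD, n = 9), a log2 fold change of 0.69 (SE 0.30, unadjusted p = 0.0303, adjusted p = 0.435 in edgeR). Without E2 library 20 the log2 fold change was 0.34 (adjusted p = 0.786 in edgeR). The thinned share of cells with a read was 29.0% ± 9.12 (SD, n = 10) for control libraries and 39.0% ± 19.9 (SD, n = 9) for E2 libraries. Ncoa2 was at 50.4 ± 12.1 CPM (SD, n = 10) in control and 59.2 ± 27.5 CPM (SD, n = 9) in E2, a log2 fold change of 0.23 (SE 0.25) that was 0.04 without library 15. Ncoa3 was at 35.9 ± 17.5 CPM (SD, n = 10) and 31.1 ± 10.1 CPM (SD, n = 9), a log2 fold change of -0.21 (SE 0.32). Without thinning, a read of Ncoa3 was found in 91.3% ± 8.68 of control and 80.3% ± 5.81 of E2-treated cells (exact permutation p = 0.00695, adjusted p = 0.143), and with cells thinned to the same depth in 39.99% ± 12.5 and 31.2% ± 8.79 (exact permutation p = 0.0966, adjusted p = 0.5258; n = 10 and 9). The difference was -10.97 percentage points without thinning and -8.79 with it, and the part of depth in it was not tested. Medians over all genes tested were -2.52 and -1.55 percentage points.

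Of the corepressors, Ncor1 was the most precisely measured. It was at 155.0 to 299.7 CPM (median 257.4) in control and 142.8 to 471.9 CPM (median 259.2) in E2, and the groups overlapped except for E2 libraries 14 and 20 above the control range and library 18 below it. The change was 0.12 on the log2 scale (SE 0.18, adjusted p = 0.915), with a 95% interval of 0.842-fold to 1.40-fold. Nrip1 was sparse and uneven. Control libraries held 0 to 63.1 CPM (median 5.80) and E2 libraries 3.51 to 53.8 CPM (median 17.9). In control 1 library, number 2, lay far above the rest, and 28.1% of all control reads of Nrip1 came from 1 cell. E2 and control differed by a log2 fold change of 0.81 (SE 0.69, adjusted p = 0.823), with a 95% interval of 0.650-fold to 4.69-fold. It was 1.72 without control library 2 (unadjusted p = 0.0151, adjusted p = 0.355 in edgeR), 0.51 without E2 library 15 and 1.82 by limma-voom (adjusted p = 0.302), and it was called in none of these. Its thinned share was 7.44% ± 8.43 (SD, n = 10) for control libraries and 12.1% ± 3.87 (SD, n = 9) for E2 libraries (exact permutation p = 0.149, adjusted p = 0.593).

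**Figure D2:**
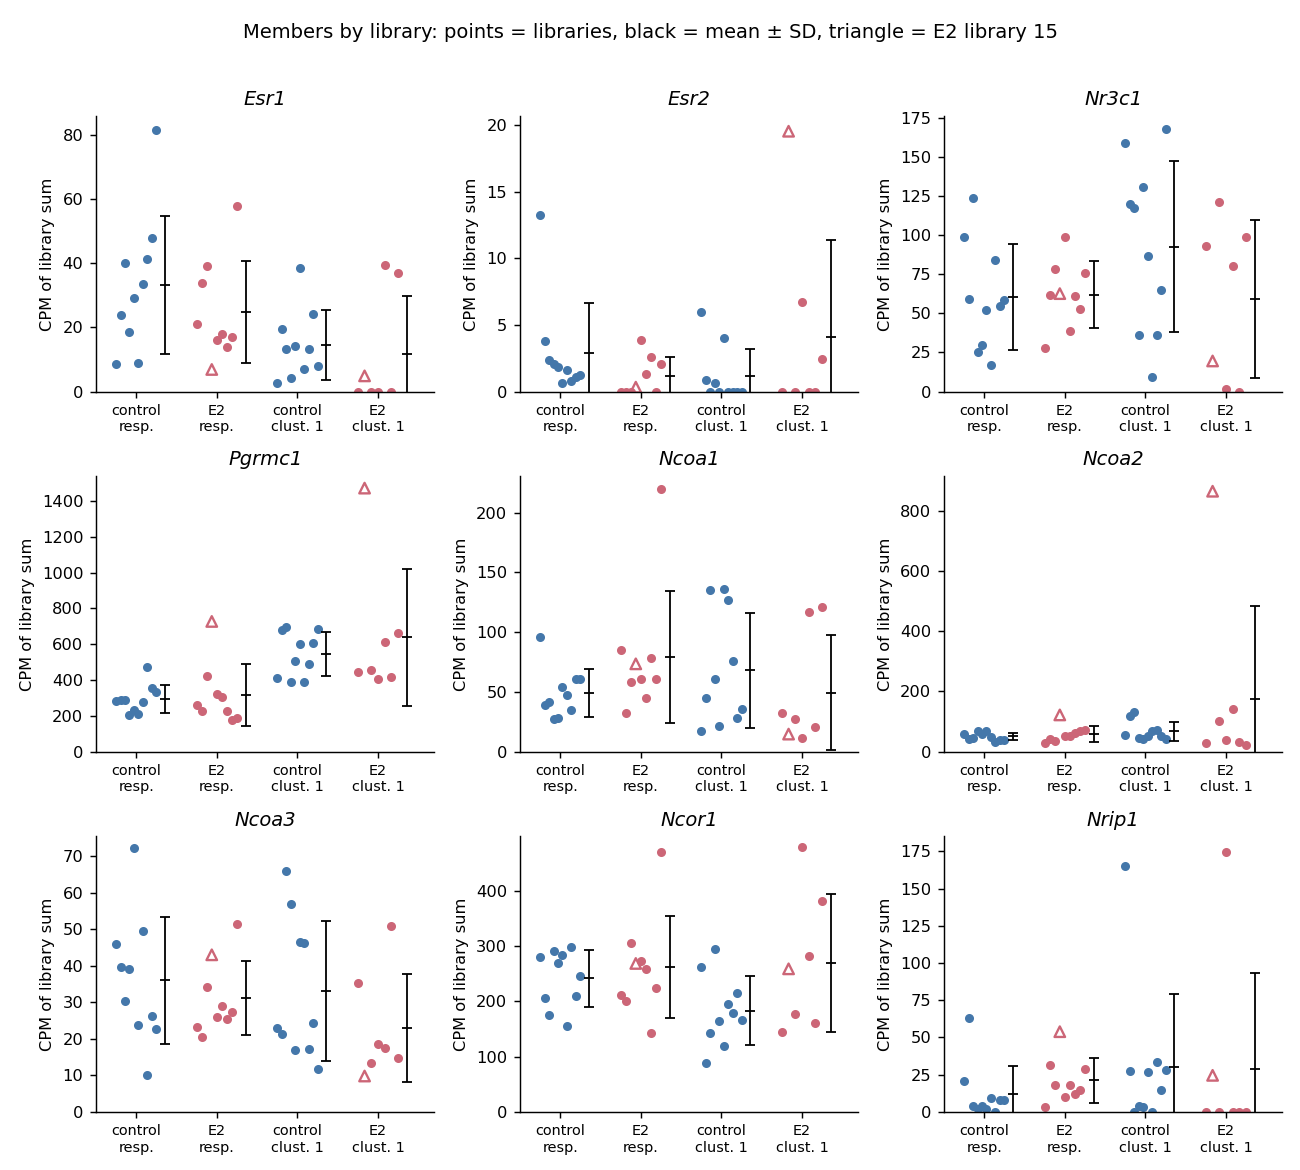
CPM of each library sum (y axis, linear from 0) for the 9 members in control and E2-treated responsive (resp.) and cluster 1 (clust. 1) cells; points are libraries, black bars are mean ± SD cut off at 0, and the open triangle is E2 library 15, whose cluster 1 sum came from 3 cells. Control (blue) and E2 (red) libraries overlapped for every member in responsive cells, and Pgrmc1 lay higher in cluster 1 of both conditions.

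The response itself was present in these sums. Greb1, a direct estradiol target, was at 35.2 ± 16.8 CPM (SD, n = 9) in E2-treated responsive cells and at 0.035 ± 0.109 CPM (SD, n = 10) in control (adjusted p = 1.56e-09, edgeR). Igfbp5, a secreted binder of insulin-like growth factors, rose from 174.0 ± 69.4 to 1065 ± 395.5 CPM and Fos, an immediate-early transcription factor, from 1053 ± 231.1 to 1701 ± 464.5 CPM (SD, n = 10 and 9; adjusted p = 1.70e-08 and 0.00871). These were the 3 called genes among 13 tested of the 27 on a list of estradiol-induced genes. The median log2 fold change of the 13 was 0.68, against 0.02 over all genes tested. This list was written with earlier results of these data known, so its calls are not independent support for a response. Of 19 tested genes of a list induced by glucocorticoids, which act through Nr3c1, 3 were called. Angptl4, an inhibitor of lipoprotein lipase, rose (log2 fold change 2.20, SE 0.52, adjusted p = 0.0248 in edgeR), while Nfkbia, which holds NF-kappaB in the cytoplasm, fell by 0.78 and Tgm2, a transglutaminase, fell by 0.79 on the log2 scale (adjusted p = 0.00303 and 0.0113). Their list had a median of -0.31.

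The wider machinery of the receptors gave no call in the same fit. This held for 21 tested other steroid and orphan receptors (2 with an unadjusted p under 0.05), 34 other coactivators (2), 31 other corepressors (4), 18 chaperones of the receptors (1) and 9 pioneer and ovarian transcription factors (2). Over all 10265 genes 1.37% were called and 1015 had an unadjusted p under 0.05. At that rate lists this short would hold few calls, so their lack is not read as a trait of this machinery. DESeq2 called 2 of the receptors and 2 of the corepressors, limma-voom called 1 of each, and neither called a gene of the other 3 lists. Among the markers of cell types, Krt19 rose from 408.7 ± 81.2 to 622.3 ± 84.3 CPM and was the only call of 12 tested for OSE in edgeR, and Thy1 fell from 169.2 ± 56.6 to 24.4 ± 16.4 CPM and was the only call of 7 tested for fibroblasts (adjusted p = 0.00973 and 2.38e-06, edgeR; SD, n = 10 and 9). Of the 12 OSE markers, 6 had a positive and 6 a negative log2 fold change (median -0.02), 9 had an unadjusted p under 0.05, and DESeq2 called 3 and limma-voom 2. None of 9 tested markers of granulosa, theca, endothelium, leukocytes and oviduct was called by edgeR, DESeq2 or limma-voom, and none had an unadjusted p under 0.05. The median log2 fold changes of the 5 lists of receptor machinery were 0.07, 0.06, -0.15, 0.01 and 0.11, close to the 0.02 over all genes.

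**Figure D3:**
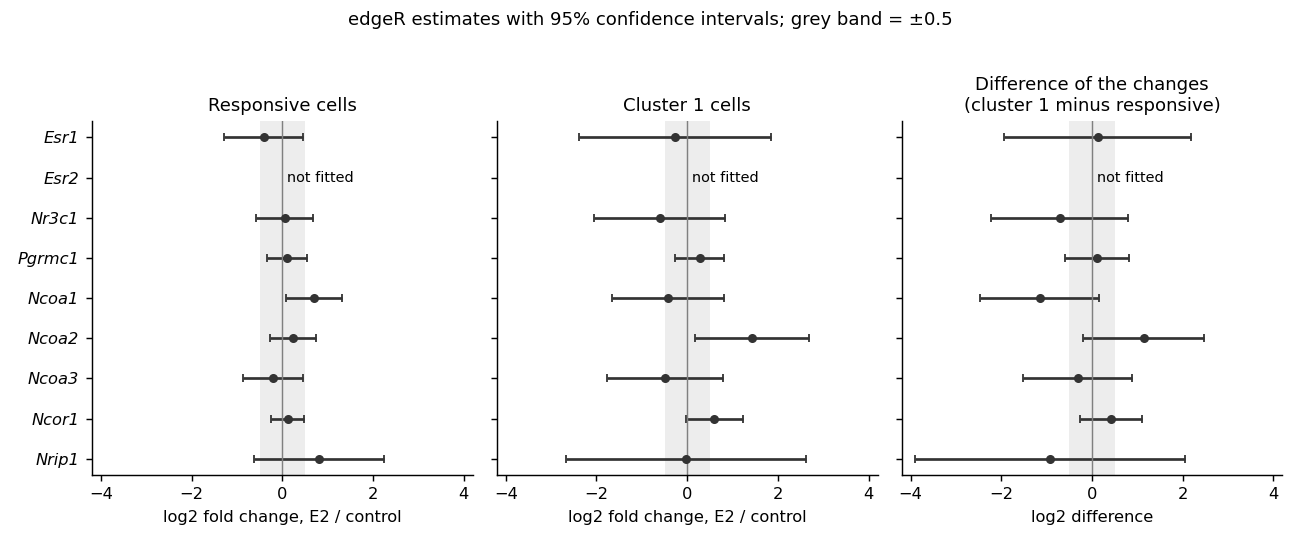
Log2 fold change of E2 against control with its 95% confidence interval (x axis) for each member (y axis) in responsive cells, in cluster 1 cells, and the difference of these changes; the grey band spans -0.5 to 0.5 and Esr2 was not fitted. Intervals in cluster 1 are wider, up to -2.68 to 2.61 for Nrip1, and none of the members was called in any panel.

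In cluster 1, where cells were regarded as unresponsive, 7 E2 libraries of 3 to 9 cells were compared with 10 control libraries. Here 7 of 8340 genes (0.0839%) were called in edgeR, 3 higher (0.036%) and 4 lower (0.048%), 622 had an unadjusted p under 0.05, and DESeq2 called 82. None of the 8 members tested was called by edgeR, DESeq2 or limma-voom, and 1 had an unadjusted p under 0.05. Esr1 was at 2.55 to 38.6 CPM in control libraries and at 0 in 4 of 7 E2 libraries, where a count of 0 allows up to 3.93 to 6.74 CPM. The other 3 E2 libraries held 4.89, 37.1 and 39.4 CPM, which came from 4 of 42 cells, and the groups overlapped. The log2 fold change of -0.26 had a 95% interval of 0.192-fold to 3.61-fold, so a fall or a rise within these bounds remains compatible with these sums.

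Nr3c1 was at 92.7 ± 54.8 CPM (SD, n = 10) in control cluster 1 and at 59.2 ± 50.6 CPM (SD, n = 7) in E2, where it ranged from 0 to 121.3 CPM (log2 fold change -0.61, SE 0.70). Pgrmc1 was at 545.8 ± 123.5 CPM (SD, n = 10) and 638.5 ± 381.0 CPM (SD, n = 7). The E2 mean rested on library 15 at 1472 CPM, with the other 6 libraries at 404.5 to 662.0 CPM, inside the control range of 390.0 to 694.5 CPM. The log2 fold change of 0.27 became -0.11 without that library. Ncoa2 had an unadjusted p of 0.0275 in edgeR, with a log2 fold change of 1.42 (SE 0.61, adjusted p = 0.588), and this too came from library 15. It held 865.6 CPM there, most of it in a cell with 163 reads, against 22.2 to 143.0 CPM in the other E2 libraries and 41.0 to 132.7 CPM in control. Without library 15 the log2 fold change was -0.14.

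Ncor1 was at 183.0 ± 62.8 CPM (SD, n = 10) in control cluster 1 and 269.7 ± 124.7 CPM (SD, n = 7) in E2. The E2 libraries from 144.0 to 480.0 CPM overlapped most of the control range of 88.5 to 295.3 CPM, and 2 of them lay above it. The log2 fold change was 0.60 (SE 0.30, unadjusted p = 0.0606, adjusted p = 0.693 in edgeR) and stayed between 0.40 and 0.71 when each library was left out in turn. Ncoa1 was at 68.1 ± 47.9 and 49.2 ± 48.2 CPM, Ncoa3 at 33.0 ± 19.2 and 22.9 ± 14.8 CPM, and Nrip1 at 30.1 ± 49.1 and 28.4 ± 65.1 CPM in control and E2 (SD, n = 10 and 7). Nrip1 was at 0 in 5 of 7 E2 libraries, and library 17 alone held 174.5 CPM, so that its mean describes 1 library. None of 9323 genes passed in the shares of cluster 1 cells with a read, while 757 had an unadjusted p under 0.05. The smallest p that 10 against 7 libraries allow is 0.000103, so a single gene at that p could not have passed the adjustment. Of the 8 members tested there, none passed and none had an unadjusted p under 0.05. Esr1 had a thinned share of 10.9% ± 5.91 in control and 4.90% ± 8.53 in E2 (exact permutation p = 0.103, adjusted p = 0.716, n = 10 and 7). The median difference over the 9323 genes was -1.985 percentage points.

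Whether the change with E2 differed between the clusters was tested as an interaction. It was called for 21 of 11398 genes (0.184%), 2 with a positive value, cluster 1 minus responsive (0.0175%), and 19 with a negative one (0.167%), with 1244 at an unadjusted p under 0.05, and for none of the 8 members, which all had an unadjusted p above 0.05. DESeq2 and limma-voom called no member either. This fit takes the sums of both clusters of a library as independent, and with the library as a block none of the 21 calls was left (0 genes called, 947 at an unadjusted p under 0.05). The differences with the lowest p were those of Ncoa1 at -1.16 (SE 0.65, adjusted p = 0.533) and Ncoa2 at 1.14 (SE 0.66, adjusted p = 0.553, edgeR), and the latter was -0.21 without E2 library 15 and -0.08 with the library as a block. The interval for Esr1 ran from -1.94 to 2.18 and that for Ncor1 from -0.27 to 1.11.

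The levels in cluster 1 and in responsive cells were then set side by side over the 17 libraries that held both. The clusters were made from imputed expression of the same cells, the members included, so these differences are a description with no test. Pgrmc1 was higher in cluster 1 in 17 of 17 libraries, a pattern of 56 of 10597 genes (0.528%). Cluster 1 sums averaged 584.0 ± 255.4 CPM (SD, n = 17), and responsive sums averaged 305.5 ± 127.8 CPM (SD, n = 19), a log2 difference of 0.94 (SE 0.17), and 0.90 without E2 library 15. In control, the highest and lowest libraries were 694.5 and 390.0 CPM in cluster 1 and 471.2 and 204.3 CPM in responsive cells. The thinned share of cells with a Pgrmc1 read was 94.4% ± 6.40 in cluster 1 and 81.0% ± 10.3 in responsive cells of the same 17 libraries (SD). In order, the means of Pgrmc1 fell from E2 cluster 1 (638.5) through control cluster 1 (545.8) and E2 responsive (317.5) to control responsive (294.7 CPM). Without E2 library 15 the E2 mean of cluster 1 was 499.5 ± 110.0 CPM (SD, n = 6) and that of responsive cells 266.3 ± 81.8 CPM (SD, n = 8), both below control, so the order of the conditions turned while that of the clusters did not. Conditions within a cluster did not differ beyond their spread.

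Esr1 lay the other way. It was lower in cluster 1 in 15 of 17 libraries, and 964 of 10597 genes (9.1%) were lower in at least 15, 246 of them (2.32%) in all 17. Cluster 1 sums averaged 13.3 ± 13.9 CPM (SD, n = 17) against 29.3 ± 19.1 CPM (SD, n = 19) of responsive sums, a log2 difference of -1.16 (SE 0.51). It was -1.77 with the library as a block. Imputed log values of Esr1 also lay lower in cluster 1, by -0.28, with control means of 0.58 in responsive and 0.28 in cluster 1 cells. Their scale differs from that of the log2 differences of counts, so the sizes are not compared. Control library 6 and E2 library 18 were the exceptions. The thinned share with a read was 8.45% ± 7.501 in cluster 1 and 18.1% ± 10.4 in responsive cells (SD, n = 17), lower in cluster 1 in 12 libraries and higher in 4. Without thinning, 17 of 126 control cluster 1 cells had a read (13.5%, exact binomial 95% interval 8.06 to 20.7%) and 4 of 42 E2-treated ones (9.52%, 2.66 to 22.6%), against 50 of 203 (24.6%, 18.9 to 31.1%) and 57 of 218 (26.1%, 20.4 to 32.5%) responsive cells. The intervals cover counting error only. Cluster 1 cells were also sequenced less deeply, at a median of 104789 reads against 129418 in responsive cells. In control libraries the summed level of 3 measured theca markers was 73.1 to 490.9 CPM in cluster 1 and 16.4 to 65.1 CPM in responsive cells, the fibroblast sums given above did not overlap although most of those markers were lower in cluster 1, and the median mitochondrial share of reads was 2.53% and 2.08%. The part of these in the differences of Pgrmc1 and Esr1 was not tested. The order of the Esr1 means was control responsive (33.4), E2 responsive (24.9), control cluster 1 (14.5) and E2 cluster 1 (11.6 CPM), and the spread of each was wider than its distance from its neighbour.

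**Figure D4:**
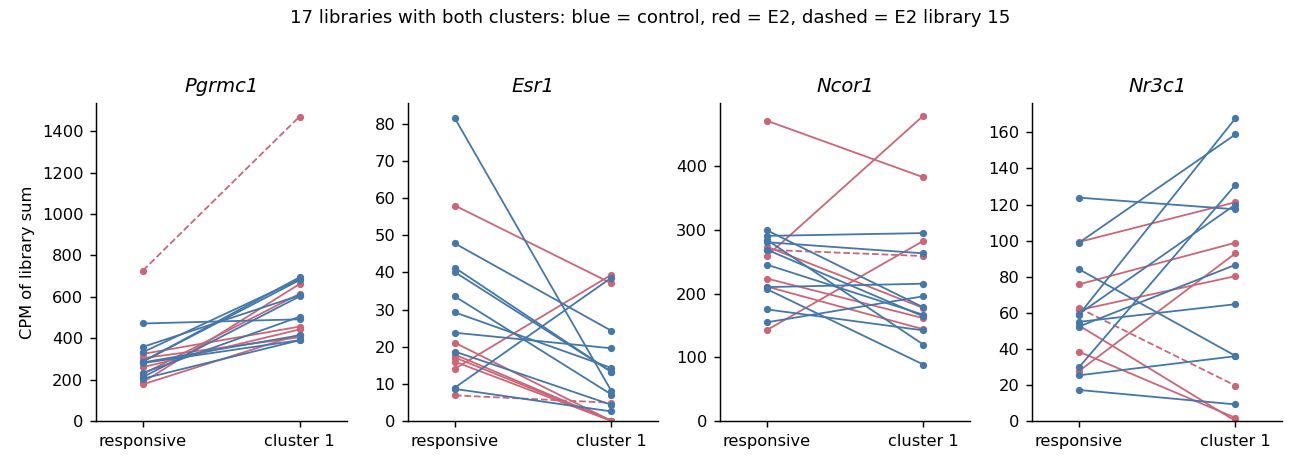
CPM (y axis, linear from 0) of Pgrmc1, Esr1, Ncor1 and Nr3c1 in responsive and cluster 1 cells of the 17 libraries with both; each line is a library, control in blue, E2 in red, and E2 library 15 dashed. Pgrmc1 was higher in cluster 1 on all 17 lines, Esr1 was lower there on 15, and Ncor1 and Nr3c1 had lines in both directions.

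The other members had no such steady direction. Ncor1 was lower in cluster 1 in 12 of 17 libraries with a log2 difference of -0.21 (SE 0.17), and Nr3c1 was higher in 11 with 0.33 (SE 0.37). Ncoa1 was lower in 10 of 17 with -0.01 (SE 0.34), and Ncoa3 was lower in 11 with -0.25 (SE 0.30). Ncoa2 had a log2 difference of 0.91 (SE 0.33) that was 0.35 without E2 library 15, and it was higher in 10. Nrip1 had 0.94 (SE 0.74) although it was lower in 10 of 17, and with the library as a block in place of the condition the difference was -0.63. Over all 10597 genes the median log2 difference was -0.06, and the 5th and 95th percentiles were -1.82 and 1.29, so that each of the 8 members lay between these percentiles. The median of the estradiol-induced list was -1.63 over 13 genes and that of the glucocorticoid-induced list was -1.28 over 18 genes, whereas the lists of other receptors (-0.20), coactivators (0.01), corepressors (0.02) and chaperones (-0.15) lay near the median of all genes.

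The imputed values gave a sharper picture of E2 than the counts did. The authors smoothed the log values between similar cells, and after this every member was above 0 in all 589 cells, Esr2 included. Library means of responsive cells then ranged from 1.17 to 1.23 in control and from 1.42 to 1.52 in E2 for Ncoa1. For Ncoa3 they ranged from 1.69 to 1.76 and from 1.49 to 1.53, and for Nrip1 from 0.278 to 0.325 and from 0.423 to 0.459. For these 3 of the 9 members the conditions did not overlap, and this was so for 7036 of 14299 genes (49.2%). In the counts none of the 8 members tested was without overlap, and 45 of 10265 genes (0.438%) were. The part of smoothing in the missing overlap was not tested. The SD of the Nrip1 library means was 0.014 in control and 0.011 in E2 on the imputed log scale. The base of this logarithm is not stated.

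**Figure D5:**
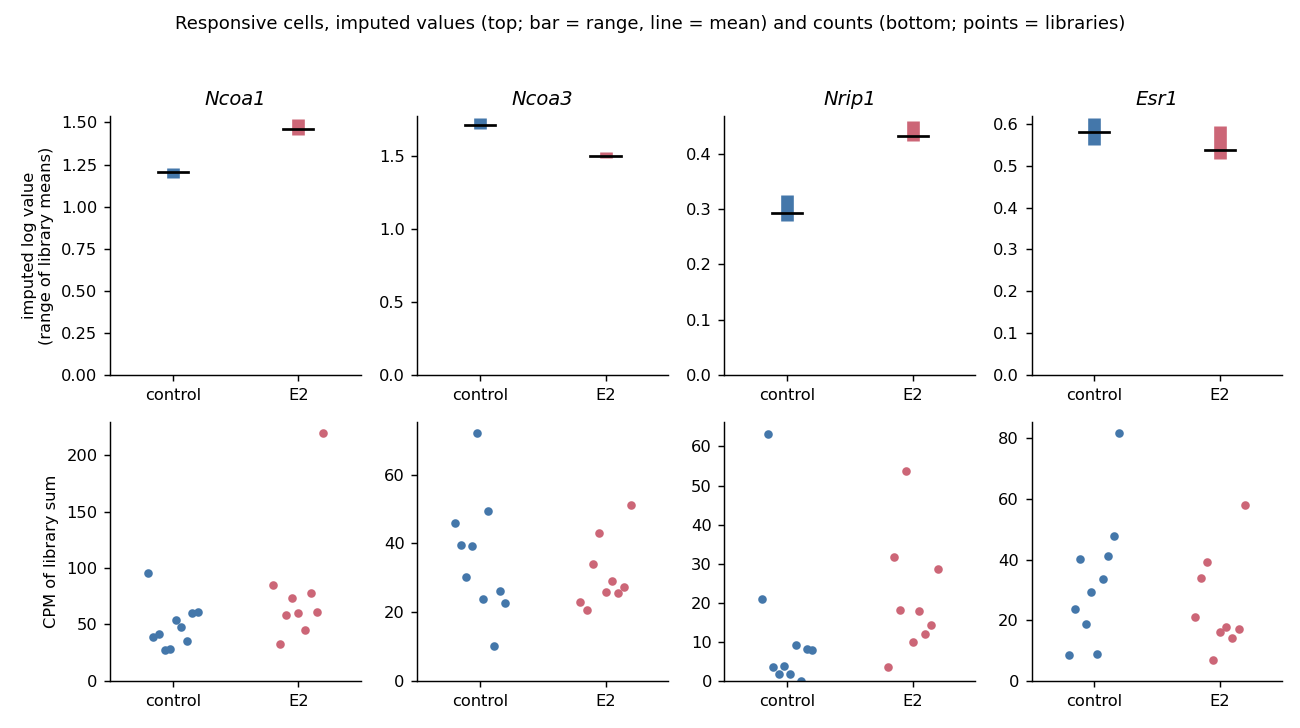
Library means of the imputed log values (top; bar = range over libraries, black line = mean) and CPM of the counts (bottom; points = libraries) in control and E2-treated responsive cells for Ncoa1, Ncoa3, Nrip1 and Esr1; all y axes start at 0. The bars of Ncoa1, Ncoa3 and Nrip1 do not overlap, while the points of all 4 genes do.

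Genes whose log2 CPM followed a member most closely over the 36 sums were named by rank, as a description of sums that share libraries and depth. For Esr1 they were Pnrc2, a coregulator of nuclear receptors (r = 0.81), Arhgdib (0.80) and Plcd3 (0.76). For Pgrmc1 they were Capza2 (0.83) and the ribosomal protein genes Rps6 (0.79) and Rps3a1 (0.78). Osbpl8 (0.75), Vdr, the vitamin D receptor (0.72), and Bscl2 (0.71) came first for Nr3c1. For Ncoa2 they were Serinc3 (0.81), Gnas (0.74) and Atp2a2 (0.73), all over sums that include E2 library 15. The highest values were lower for Ncor1 (Mau2, 0.71), Nrip1 (Zbtb18, 0.70), Ncoa1 (Ythdc2, 0.67) and Ncoa3 (Spns1, 0.64).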

How the data were processed

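Sources were 3' single-cell libraries of control and E2-treated OSE cells. Per the submitters' processing notes and methods, the authors quantified reads with kallisto 0.44.0 against GRCm38, aggregated them per gene by tximport, then removed outlying cells and rarely detected genes. They deposited estimated counts (expected counts, not normalized), imputed log2 values (MAGIC after scran scaling; base not stated, taken as 2), and cluster and state labels per cell. The authors also gave the percent of each cell's counts on mitochondrial genes, from scater. Of the count values above 0, 66.9% were exactly whole. Column 13 was not analysed here, and 14135 of 14299 genes had a symbol in annotation M21.

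Counts were summed per library and cluster (at least 3 cells), rounded, and tested with edgeR 4.0.16 in R 4.3.3 (TMM, filterByExpr, quasi-likelihood, Benjamini-Hochberg over all genes tested; called at adjusted p < 0.05 and absolute log2 fold change > 0.5, for the interaction at adjusted p only). SE is the absolute log2 fold change over the square root of F. Library shares of cells with a read, each cell thinned to 20000 reads, were compared by exact two-sided permutation (smallest p 2.17e-05 for 10 against 9 libraries and 0.000103 for 10 against 7). The interaction was fitted over sums of both clusters. Cluster 1 against responsive cells was described with the condition as a covariate. Alternatives were DESeq2 1.42.0, limma-voom 3.58.1, DESeq2 size factors, no filter, thinned cells, sums of 5 or more cells, a library block and each library left out. Scripts were tested on simulated data. Confidence intervals of fold changes come from the quasi-likelihood fit and include the spread between libraries. The exact binomial intervals of shares and the bounds for libraries without a read cover counting error only. There are no molecular identifiers, so these bounds are for reads and do not cover the sampling of molecules.

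The members and the gene lists, written from general knowledge, were chosen with earlier results of these data known. All members are named. Of each other list, up to 3 called genes of lowest p per direction in responsive cells are named, and as genes of like pattern the 3 highest Pearson correlations of log2 CPM per member with a mean of at least 20 CPM.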

Additional observations from a re-analysis of the deposited data

Results flagged for a closer look

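The values below lay far from the rest of their group, by a gap of the highest library to the next that exceeded Dixon's 95% critical value for the group's size. Such gaps occurred in 12 of 36 groups of libraries, and chance gives about 1 in 20 for normal values, which skewed CPM with many zeros are not. Counts of sparse genes are uneven, and the cause of these gaps was not tested.

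E2 library 15 held the highest value in 5 of these groups: Pgrmc1 at 727.2 CPM in responsive cells (next 423.9) and at 1472 CPM in cluster 1 (next 662.0), Ncoa2 at 122.0 CPM in responsive cells (next 71.9) and at 865.6 CPM in cluster 1 (next 143.0), and Esr2 at 19.6 CPM in cluster 1 (next 6.71). This last value is 4 counts in a sum of 3 cells, and the next library also held 4 counts. E2 library 20 held 219.6 CPM of Ncoa1 (next 84.8) and 471.9 CPM of Ncor1 (next 305.8) in responsive cells. Control library 1 held 13.3 CPM of Esr2 (next 3.81) and 95.6 CPM of Ncoa1 (next 61.0) in responsive cells, and 164.8 CPM of Nrip1 in cluster 1 (next 33.1). All 37 of these Esr2 counts came from 1 cell. Nrip1 also stood out at 63.1 CPM in responsive cells of control library 2 (next 20.8) and at 174.5 CPM in cluster 1 of E2 library 17 (next 24.5).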

How the results depend on the processing

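No paired analysis was possible because the control and E2 libraries share no replicate number, so a library block entered only where both clusters of a library were compared. No member was called under any alternative in 604 repeated fold change tests, whose lowest adjusted p was 0.253, or in 50 repeated tests of shares, whose lowest was 0.143. The direction of the fold change was kept in 570 and turned in 34, and the cause of a turn was not tested except where a library is named.

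With each library left out in turn, called genes numbered 107 to 141 in responsive cells (141 with all), 1 to 9 in cluster 1 (7) and 15 to 44 for the interaction (21). DESeq2 called 259, 82 and 112. Without a filter on low counts 1 gene was called in cluster 1. The interaction was called for 5 genes in thinned cells, for 13 by limma-voom and for 0 with the library as a block, where 947 had an unadjusted p under 0.05. Shares without thinning gave 168 called genes in responsive cells (104 thinned).

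Leaving out libraries in turn gave log2 fold changes in responsive cells of 0.51 to 1.72 for Nrip1 (0.81 with all), 0.34 to 0.86 for Ncoa1 (0.69), -0.0674 to 0.22 for Nr3c1, -0.13 to 0.21 for Pgrmc1 and -0.0303 to 0.20 for Ncor1. In cluster 1 it gave -1.02 to 0.0266 for Esr1, -0.11 to 0.37 for Pgrmc1, -0.14 to 1.65 for Ncoa2 and -3.24 to 0.97 for Nrip1. For the interaction it gave -0.76 to 0.52 for Esr1, -0.0205 to 0.19 for Pgrmc1 and -0.21 to 1.38 for Ncoa2.

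With at least 5 cells per sum, which drops E2 library 15 from cluster 1, Pgrmc1 turned to -0.11 and Ncoa2 to -0.14 in cluster 1, and to -0.25 and -0.39 for the interaction. DESeq2 gave -0.0759 for Ncoa2 and 0.0911 for Nrip1 in cluster 1, and DESeq2 size factors gave 0.0959 for Nrip1. For the interaction, Esr1 turned to -0.0385 in thinned cells, -1.43 with the library as a block and -1.41 by limma-voom, Pgrmc1 to -0.0642 by limma-voom, and Ncoa2 to -0.0844 with the block and -0.15 by limma-voom. DESeq2 size factors moved the median log2 fold change of all genes in cluster 1 from -0.06 to 0.05 and for the interaction from -0.19 to -0.02, and turned the split of interaction calls from 2 higher and 19 lower into 7 and 15.

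Differences in shares turned without thinning for Esr1 (1.36 percentage points), Ncoa2 (-5.04) and Ncor1 (-0.62) in responsive cells, and for Pgrmc1 (-1.17), Ncoa1 (-2.35), Ncoa3 (-7.42) and Nrip1 (-2.24) in cluster 1. At 2 or more reads they turned for Ncor1 in responsive cells (-0.23) and for Ncoa2 (2.66) and Ncoa3 (-0.30) in cluster 1, and with at least 5 cells per library for Nrip1 (-1.52). E2-treated cluster 1 sums of 233995 to 771505 reads limit what can be said of Esr1, Esr2 and Nrip1 there.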

Other observations

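Along the trajectory that the authors built, state 1 held 148 control and 41 E2-treated cells. Of the other states, those with 14 to 151 cells of a condition are given, and groups with fewer cells were left out. Pgrmc1 was at 503.6 CPM (control) and 565.8 CPM (E2) in state 1 and at 244.3 to 378.7 CPM in these other states. Esr1 was at 19.5 and 11.8 CPM against 18.9 to 32.2 CPM. Over these other states, Ncoa1 ranged from 23.9 to 98.7 CPM in control and from 27.4 to 77.4 CPM in E2, and Nrip1 from 10.9 to 15.4 CPM in control and from 5.82 to 27.6 CPM in E2, so the conditions overlapped. States were built from expression of the same cells and each value pools the cells of 1 condition, so no test was made.

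Among responsive control cells thinned to 20000 reads, a read of Ncoa1 was found in 17 of 39 cells with a read of Esr1 (43.6%) and in 25.6% of 164 cells without. Among E2-treated cells it was found in 17 of 40 (42.5%) and in 37.1% of 178. Nrip1 was found in 1 of 39 and 9.15% of 164 control cells, and in 5 of 40 and 11.8% of 178 E2-treated cells. Other members were also found more often among cells with a read of Esr1. This held in both conditions for Pgrmc1, Nr3c1, Ncoa2 and Ncoa3. In control it was 94.9% against 81.7% for Pgrmc1 and 48.7% against 37.2% for Ncoa3. Esr2 was found less often in both conditions, and Ncor1 less often in control only. No share over all genes is set beside these values. Cells of a library are not independent, and these values are a description.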
